A study of Rattus norvegicus with 18 samples.

Results

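Genes of ketone body production and of the fasting response driven by PPAR-alpha were examined in rat liver: Ppara, Cpt1a, Bdh1, Acat1, Pdk4, Fgf21, Angptl4 and Creb3l3. They were taken by gene symbol from the platform annotation, 1 probe set per gene (the brightest by mean over all arrays), and all 8 were found among 14217 measured genes. The livers came from adult male Sprague Dawley rats fed for 8 weeks. The HFD+PE group received a high fat diet together with 150 mg per kg per day of pomegranate skin extract, the HFD group the high fat diet alone, and the chow group a chow diet. All animals, chow animals included, had an overnight fast before sampling, so no fed liver stands beside them. What the diets contained is not stated in the labels. The labels call the HFD livers fatty, and the HFD+PE and chow livers normal. Each group had 6 Affymetrix arrays. Although labelled as biological replicates, 3 pairs of arrays (HFD+PE 3 and 4, HFD 1 and 2, chow 3 and 4) held 0 probe sets that were more than 2 log2 units apart. The remaining 150 pairs of arrays held between 18 and 109. From these values alone, each pair was taken to come from the same animal and averaged, giving 5 animals in each group. The inference is weakest for the HFD+PE pair, whose arrays also differ in the second number of their descriptions (3 and 1), a number with no stated meaning that is equal within the other pairs.

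During fasting, fatty acids released from fat tissue enter liver mitochondria as carnitine esters, are oxidised to acetyl-CoA, and are turned into ketone bodies that other organs burn. PPAR-alpha, the nuclear receptor encoded by Ppara, is activated by fatty acids and, with its partner RXR, drives many genes of this program. Several of its targets encode signals rather than enzymes, among them the hormone FGF21 and the lipase inhibitor ANGPTL4.

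All values are log2 signals as deposited, given as levels or as differences between group means. A difference of 1 is a doubling of signal. Arrays have no read depth, and the number of animals limits the precision. Levels of different genes cannot be set against each other on this scale. RNA of whole liver was measured, so that fewer cells of a type and less RNA per cell cannot be told apart. The 8 hepatocyte markers averaged 13.15 to 13.41 in HFD+PE animals, 13.03 to 13.33 in HFD animals and 12.84 to 13.33 in chow animals. Albumin (Alb), at 14.9 to 15 in every group, was at the top of the measured range and so says little. Cyp2e1, a hepatocyte marker of the list, was 0.63 higher in HFD+PE than in chow livers (SE 0.14, adjusted p = 0.108 in limma) and 0.40 higher in HFD than in chow livers. The list as a whole was split, with 4 markers higher and 3 lower in HFD+PE than in chow livers (median 0.025). Between HFD and chow, 3 were higher and 4 lower (median -0.01). The arrays also fell into a high set of 5 and a low set of 13 by their hybridization controls. The high set held 2 HFD+PE arrays, 0 HFD arrays and 3 chow arrays, and chow 3 and 4, like HFD+PE 3 and 4, lay in different sets. Within-set values stand beside the main ones where they bear on a result. Animals chow 3-4 and HFD+PE 3-4 enter both sets, so values of the high and low sets are not independent.

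None of the 8 genes passed an adjusted p of 0.05 in any comparison in limma over 15 animals, where 0% of the 14217 genes passed in each. The differences that stood farthest from 0 relative to their error were higher Bdh1 and lower Angptl4 in HFD+PE livers than in chow livers. Bdh1 was 0.44 higher (SE 0.12, 1.36-fold, adjusted p = 0.162 in limma) and Angptl4 0.62 lower (difference -0.62, SE 0.19, 0.651-fold, adjusted p = 0.222 in limma). In no comparison were the 2 groups of any of the 8 genes free of overlap, against 0.134% of all genes for HFD+PE and HFD, 1.41% for HFD+PE and chow, and 0.521% for HFD and chow.

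**Figure D1:**
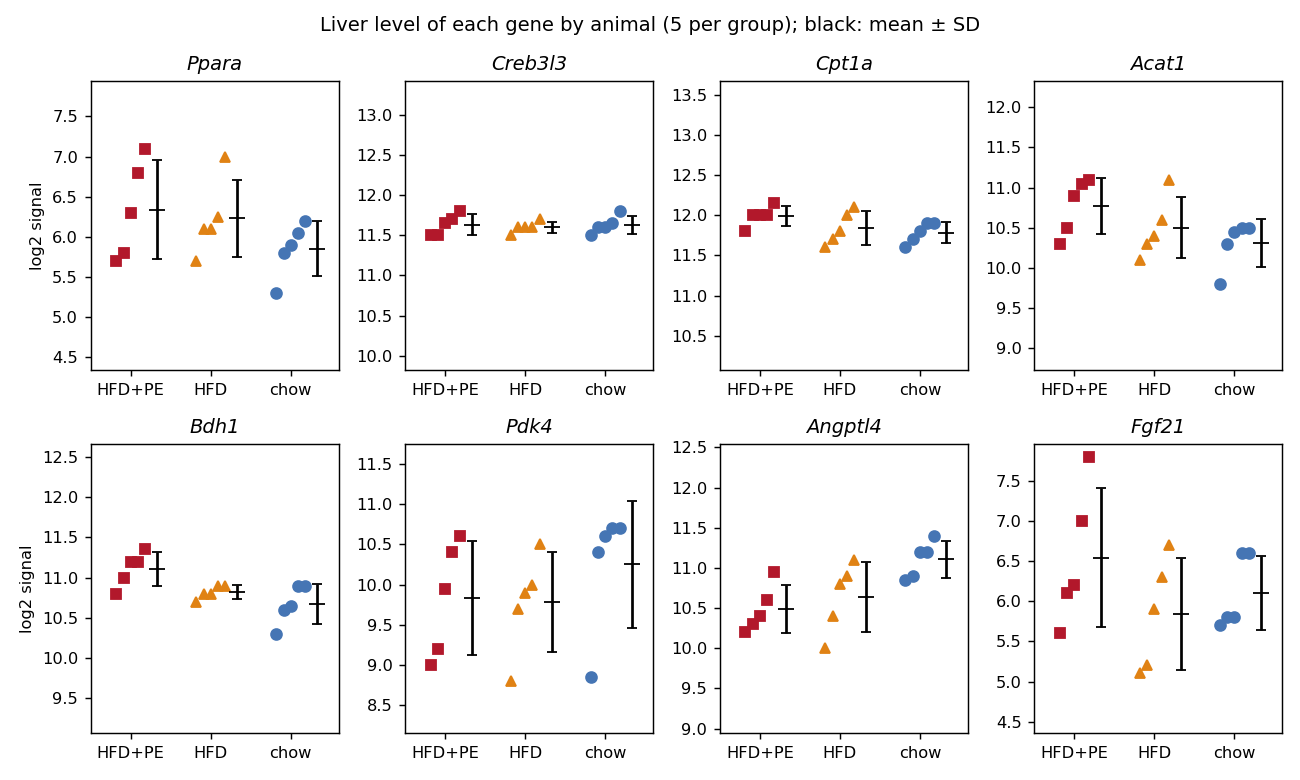
Log2 level of each of the 8 genes in every animal (points) in HFD+PE, HFD and chow livers, with the group mean; every vertical axis spans the same number of log2 units. Bdh1 was highest on average in HFD+PE livers (11.11), Angptl4 in chow livers (11.11), and Pdk4, Fgf21 and Ppara had the widest spread within groups.

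Of the regulators, Ppara was at 5.7, 5.8, 6.3, 6.8 and 7.1 in the 5 HFD+PE animals, at 5.7, 6.1, 6.1, 6.25 and 7.0 in HFD animals, and at 5.3, 5.8, 5.9, 6.05 and 6.2 in chow animals. The highest animals belonged to the HFD+PE and HFD groups, and all 3 groups overlapped. Ppara lay below the median level of all genes and had no second probe set. Means were 6.34 ± 0.61 in HFD+PE livers, 6.23 ± 0.48 in HFD livers and 5.85 ± 0.34 in chow livers (SD, n = 5 each). The difference between HFD+PE and HFD was 0.11 (SE 0.27), that between HFD+PE and chow 0.49 (SE 0.27), and that between HFD and chow 0.38 (SE 0.27). Their intervals all included 0, and that for HFD+PE against chow ran from -0.08 to 1.06. Within the high set of arrays the difference between HFD+PE and chow was 0.07 (2 against 3 animals), and within the low set it was 0.49 (4 against 3). It was 0.29 without the 3 arrays (HFD+PE 4, HFD 5 and chow 2) whose description holds 1 as its second number. The 2 arrays counted as HFD+PE animal 3-4 read 5.5 and 6.1.

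Creb3l3 encodes CREB-H, a liver transcription factor of the endoplasmic reticulum membrane that acts with PPAR-alpha on Fgf21 in mice. It was the steadiest of the genes. Its levels ran from 11.5 to 11.8 in HFD+PE livers, 11.5 to 11.7 in HFD livers and 11.5 to 11.8 in chow livers. The group means were 11.63 ± 0.13, 11.60 ± 0.07 and 11.63 ± 0.11 in HFD+PE, HFD and chow livers (SD, n = 5 each). The 95% interval of the difference between HFD+PE and chow ran from -0.17 to 0.17, and those between HFD+PE and HFD (-0.14 to 0.20) and between HFD and chow (-0.20 to 0.14) were as narrow.

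Cpt1a encodes the liver carnitine palmitoyltransferase of the outer mitochondrial membrane, the step that commits fatty acids to oxidation. It was at 11.8, 12.0, 12.0, 12.0 and 12.15 in HFD+PE animals, at 11.6, 11.7, 11.8, 12.0 and 12.1 in HFD animals and at 11.6, 11.7, 11.8, 11.9 and 11.9 in chow animals. The HFD+PE animals sat toward the top of a narrow range that the other groups shared. Cpt1a averaged 11.99 ± 0.12 in HFD+PE livers, 11.84 ± 0.21 in HFD livers and 11.78 ± 0.13 in chow livers (SD, n = 5 each). HFD+PE exceeded chow by 0.21 (SE 0.10, adjusted p = 0.456 in limma) and HFD by 0.15 (SE 0.10), while HFD and chow differed by 0.06 (SE 0.10). The unadjusted p for HFD+PE against chow was 0.0533, and 0.0258 with HFD+PE 3 and 4 as separate animals (limma). Within the high and low sets HFD+PE exceeded chow by 0.33 and 0.14. A second, dimmer probe set of Cpt1a gave 0.08, 0.09 and -0.01 for the same differences.

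Bdh1 encodes the mitochondrial dehydrogenase that interconverts acetoacetate and beta-hydroxybutyrate, the last step of ketone body synthesis. Its levels were 10.8, 11.0, 11.2, 11.2 and 11.35 in HFD+PE animals, 10.7, 10.8, 10.8, 10.9 and 10.9 in HFD animals, and 10.3, 10.6, 10.65, 10.9 and 10.9 in chow animals. In the HFD+PE group 4 of 5 animals were above every HFD and every chow animal, and the lowest, HFD+PE 1, was inside both other ranges. Bdh1 averaged 11.11 ± 0.21 in HFD+PE livers, 10.82 ± 0.08 in HFD livers and 10.67 ± 0.25 in chow livers (SD, n = 5 each). HFD+PE exceeded HFD by 0.29 (SE 0.12, interval 0.04 to 0.54, unadjusted p = 0.0255, adjusted p = 0.993 in limma). HFD exceeded chow by 0.15 (SE 0.12). A second probe set gave 0.48 for HFD+PE against chow (adjusted p = 0.137 in limma over all named probe sets), 0.19 for HFD+PE against HFD and 0.29 for HFD against chow, so the 2 probe sets placed the larger step differently. Within the high set HFD+PE exceeded chow by 0.50 and within the low set by 0.44. With HFD+PE 3 and 4 as separate animals the difference from chow was 0.48 and did not pass (adjusted p = 0.0880 in limma). With all 18 arrays as separate animals it was 0.48 and passed (adjusted p = 0.0348 in limma). Without the 3 arrays whose description holds 1 as its second number, HFD+PE exceeded chow by 0.36 (adjusted p = 0.360 in limma), and HFD and chow differed by 0.04. With the array set as a covariate HFD+PE exceeded chow by 0.40 (adjusted p = 0.243 in limma). This excess was between 0.3475 and 0.5175 when each animal was left out in turn.

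Acat1 encodes the mitochondrial thiolase that joins or splits acetoacetyl-CoA and so serves both the making and the burning of ketone bodies. It was at 10.3, 10.5, 10.9, 11.05 and 11.1 in HFD+PE animals, at 10.1, 10.3, 10.4, 10.6 and 11.1 in HFD animals, and at 9.8, 10.3, 10.45, 10.5 and 10.5 in chow animals. In 3 HFD+PE animals and 2 HFD animals the level exceeded that of every chow animal. Means were 10.77 ± 0.35 in HFD+PE livers, 10.50 ± 0.38 in HFD livers and 10.31 ± 0.30 in chow livers (SD, n = 5 each). HFD+PE exceeded chow by 0.46 (SE 0.19, 1.38-fold, unadjusted p = 0.0297, adjusted p = 0.385 in limma) and HFD by 0.27 (SE 0.19), and HFD exceeded chow by 0.19 (SE 0.19). The second probe set of Acat1 gave 0.58 between HFD+PE and chow, 0.35 between HFD+PE and HFD, and 0.23 between HFD and chow. Without chow 2, the lowest animal, HFD+PE exceeded chow by 0.33 (unadjusted p = 0.0958) and HFD exceeded chow by 0.06. With the array set as a covariate these differences were 0.40 (unadjusted p = 0.0571) and 0.03, and within the high and low sets HFD+PE exceeded chow by 0.43 and 0.48.

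Pdk4 encodes a kinase that shuts pyruvate dehydrogenase and so spares glucose in fasting. It read 9.0, 9.2, 9.95, 10.4 and 10.6 in HFD+PE animals, 8.8, 9.7, 9.9, 10 and 10.5 in HFD animals, and 8.85, 10.4, 10.6, 10.7 and 10.7 in chow animals. The chow animals stood together at the top except for chow 3-4, and the ranges of all groups nearly coincided. The means of 9.83 ± 0.71 in HFD+PE, 9.78 ± 0.62 in HFD and 10.25 ± 0.79 in chow livers (SD, n = 5 each) differed by 0.05 for HFD+PE against HFD, -0.42 for HFD+PE against chow and -0.47 for HFD against chow (SE 0.39 each). The interval of the last ran from -1.29 to 0.35. Without chow 3-4 the difference between HFD+PE and chow was -0.77 and that between HFD and chow -0.82, while within the high set HFD+PE and chow differed by -0.60 and within the low set by 0.09. The 3 low-set chow arrays included chow 4 (8.8), of the same pair as chow 3 (8.9).

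Fgf21 encodes the liver hormone that signals fasting and nutrient stress. It was at 5.6, 6.1, 6.2, 7.0 and 7.8 in HFD+PE animals, at 5.1, 5.2, 5.9, 6.3 and 6.7 in HFD animals, and at 5.7, 5.8, 5.8, 6.6 and 6.6 in chow animals. The highest animals were HFD+PE 5 (7.8) and HFD+PE 3-4 (7.0), and the lowest were HFD 3 and HFD 4. Like Ppara, Fgf21 lay below the median level of all genes and had no second probe set to set beside it. Fgf21 averaged 6.54 ± 0.86 in HFD+PE livers, 5.84 ± 0.69 in HFD livers and 6.10 ± 0.46 in chow livers (SD, n = 5 each). HFD+PE exceeded HFD by 0.70 (SE 0.38, 1.62-fold, unadjusted p = 0.0805, adjusted p = 0.993 in limma), with an interval of -0.10 to 1.5. This difference was between 0.385 and 0.935 when each animal was left out in turn. HFD+PE differed from chow by 0.44 and HFD from chow by -0.26 (SE 0.38 each), with ranges of 0.125 to 0.675 and -0.475 to -0.075 when each animal was left out. Within the low set HFD+PE exceeded HFD by 0.94 (unadjusted p = 0.0293, adjusted p = 0.993 in limma), and with the array set as a covariate by 0.96 (unadjusted p = 0.0179, adjusted p = 0.998 in limma). HFD and chow differed by -0.46 and -0.69 in these fits. HFD+PE and chow differed by 0.50 in the high set, 0.48 in the low set and 0.27 with the covariate (unadjusted p = 0.459 in limma). With HFD+PE 3 and 4 as separate animals, HFD+PE exceeded HFD by 0.78 (unadjusted p = 0.0418, adjusted p = 0.995 in limma). Without the 3 arrays whose description holds 1 as its second number, the excess was 0.715 (unadjusted p = 0.11 in limma).

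Angptl4 encodes a secreted inhibitor of lipoprotein lipase. Its levels were 10.2, 10.3, 10.4, 10.6 and 10.95 in HFD+PE animals, 10, 10.4, 10.8, 10.9 and 11.1 in HFD animals, and 10.85, 10.9, 11.2, 11.2 and 11.4 in chow animals. In the HFD+PE group 4 of 5 animals were below every chow animal, and HFD+PE 3-4 alone was inside the chow range. Angptl4 averaged 10.49 ± 0.30 in HFD+PE livers, 10.64 ± 0.44 in HFD livers and 11.11 ± 0.23 in chow livers (SD, n = 5 each). HFD+PE and HFD differed by -0.15 (SE 0.19). HFD and chow differed by -0.47 (SE 0.19, interval -0.87 to -0.07, unadjusted p = 0.0229, adjusted p = 0.578 in limma). HFD+PE and chow differed by -0.43 within the high set and by -0.55 within the low set. Macrophage markers were lower in the same groups: 7 of 8 were measured, all 7 were lower in HFD+PE than in chow (median -0.82) and in HFD than in chow (median -0.53). Their mean level was 7.07 to 8.09 in HFD+PE, 7.54 to 8.41 in HFD and 8.10 to 9.10 in chow animals, and their part in the Angptl4 difference was not tested.

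Fgf21, Angptl4, Pdk4 and Cpt1a are the targets whose levels were set against each other between animals. Promoters are shown for Fgf21, Angptl4 and Pdk4 and not for Cpt1a. These are the 250 bases before the annotated start in RefSeq, build GRCr8, at chr1:105221377-105221626 for Fgf21, chr7:15258682-15258931 for Angptl4 and chr4:34568330-34568579 for Pdk4, all on the minus strand and written 5′ to 3′. Capitals mark TATAAA on either strand, where overlapping matches run together.
Fgf21: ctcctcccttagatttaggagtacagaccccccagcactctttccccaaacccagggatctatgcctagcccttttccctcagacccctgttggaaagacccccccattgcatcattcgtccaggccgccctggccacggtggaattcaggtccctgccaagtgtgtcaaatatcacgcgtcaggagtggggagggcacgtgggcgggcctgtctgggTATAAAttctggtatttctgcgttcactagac
Angptl4: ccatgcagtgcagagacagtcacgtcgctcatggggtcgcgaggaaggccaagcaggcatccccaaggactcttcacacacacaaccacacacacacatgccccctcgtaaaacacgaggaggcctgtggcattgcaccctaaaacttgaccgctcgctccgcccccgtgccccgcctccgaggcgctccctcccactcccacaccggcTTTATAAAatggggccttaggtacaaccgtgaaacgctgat
Pdk4: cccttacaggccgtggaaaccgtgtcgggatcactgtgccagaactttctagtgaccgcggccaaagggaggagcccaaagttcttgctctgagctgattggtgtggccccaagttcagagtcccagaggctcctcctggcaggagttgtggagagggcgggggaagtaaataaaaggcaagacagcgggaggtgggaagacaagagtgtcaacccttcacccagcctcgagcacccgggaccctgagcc
TATAAA was found in 2 of the 8 promoters, those of Fgf21 and Angptl4, and in 12.9% of all 33469 promoters of that length. The direct repeat that PPAR-alpha and RXR bind, AGGTCA written 2 times with any 1 base between, was searched on both strands and found in 0 of the 8 and in 0.0508% of all. A looser form that includes it, with any base as the 4th letter of each AGGTCA, was found in 0 of the 8 and in 0.367% of all. No match says only that these letters are not in this window.

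Comparing HFD+PE with HFD sets the diet with extract against the diet alone. Of the 8 genes, 7 had a higher mean in HFD+PE livers and 1, Angptl4, a lower one, with a median difference of 0.13 beside 0 over all genes. Bdh1 alone had an unadjusted p under 0.05, 1 of 8 genes where 2.7% of all genes did (1.64% higher and 1.06% lower). That count was 0 without HFD+PE 3-4, HFD+PE 5 or HFD+PE 6, 2 without HFD+PE 1 and 3 without HFD 6.

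Comparing HFD+PE with chow sets the diet with extract against chow. Here 5 genes were higher in HFD+PE livers, 2 (Pdk4 and Angptl4) lower, and Creb3l3 equal, with a median of 0.325 beside 0.01 over all genes. The unadjusted p was under 0.05 for 3 of 8 (Bdh1 and Acat1 higher, Angptl4 lower), where 11.1% of all genes had one (6% higher and 5.14% lower). Without chow 3-4 or without HFD+PE 6 the count was 5, with HFD+PE 3 and 4 as separate animals 4, and without the arrays whose description holds 1 it was 2. For HFD against chow, the diet without extract against chow, 4 genes were higher and 4 lower, with a median of 0.015 beside 0. Angptl4 alone had an unadjusted p under 0.05, 1 of 8 where 7.65% of all genes did (4.08% higher and 3.57% lower). That count was 0 without HFD 3, HFD 4 or chow 1, 0 with the array set as a covariate, and 2 without chow 3-4. These comparisons share animals (HFD in 2 of them, chow in 2, HFD+PE in 2), so their differences are not independent.

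**Figure D2:**
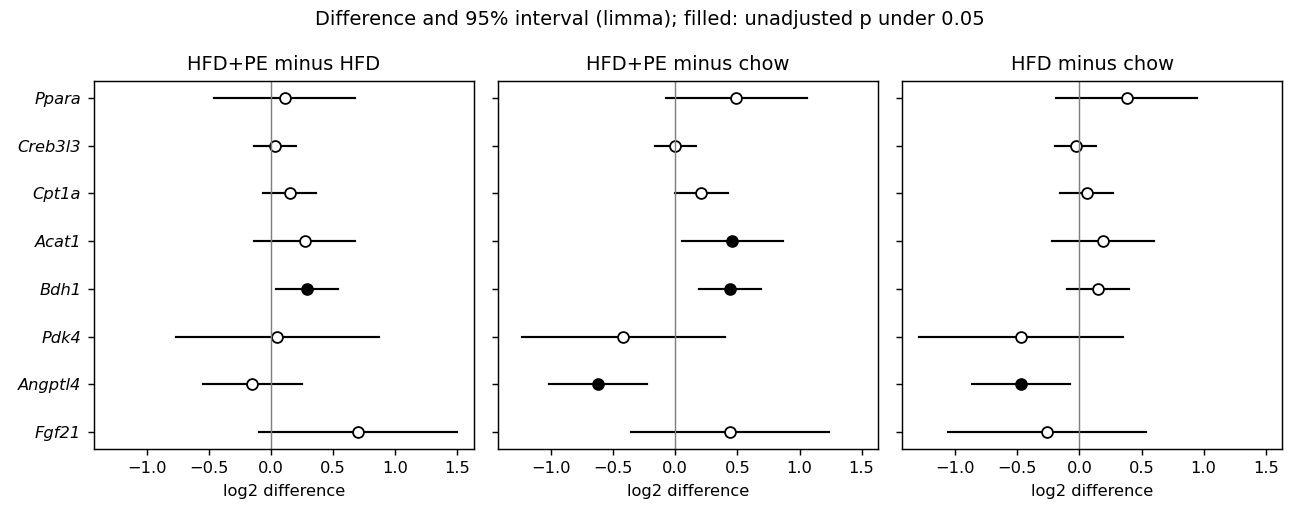
Difference in mean log2 level with its 95% interval (limma, 15 animals) for each gene, in panels for HFD+PE minus HFD, HFD+PE minus chow and HFD minus chow. Intervals of Bdh1 and Acat1 lie above 0 and that of Angptl4 below 0 for HFD+PE minus chow; Pdk4 and Fgf21 have the widest intervals.

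Asked for any difference among the 3 groups, the moderated F test gave the smallest unadjusted p to Bdh1 (0.0057, adjusted p = 0.385 in limma) and Angptl4 (0.0112, adjusted p = 0.452). These 2 of 8 were under 0.05 where 8.14% of all genes were. The 3 genes Pdk4, Fgf21 and Ppara were among the most variable of all genes within groups. The residual SD was 0.712 for Pdk4, above that of 99.1% of genes, 0.692 for Fgf21 (99% of genes) and 0.489 for Ppara (97.6%). Acat1 (0.345, 93.6%) and Angptl4 itself (0.334, 93%) also varied more within groups than most genes, and Bdh1 less so (0.195, 66.4%). The residual SD of Creb3l3, 0.106, was above only 9.4%.

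Whether these genes varied together between animals of a group was examined for 13 of the 28 pairs, Ppara with each other gene and the pairs among Cpt1a, Pdk4, Fgf21 and Angptl4, over 15 animals with group means removed, with 100000 permutations within groups. Fgf21 and Angptl4 had r = 0.662 (permutation p = 0.0178) and rho = 0.596 (permutation p = 0.0392). Pdk4 and Angptl4 had r = 0.617 (permutation p = 0.0171) and rho = 0.474 (permutation p = 0.10). For Ppara and Creb3l3, r was 0.711 (permutation p = 0.0102) and rho 0.644 (permutation p = 0.0278). The adjusted p over the 13 pairs was 0.0772 for each r, so none passed. Among the 15 pairs without a test, r was highest for Acat1 with Fgf21, at 0.665.

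Without the 2 animals farthest from the median of the first gene, r was 0.734 for Fgf21 and Angptl4, 0.388 for Pdk4 and Angptl4 (permutation p = 0.295) and 0.531 for Ppara and Creb3l3 (permutation p = 0.127). The rank correlations without those animals were 0.622, 0.488 and 0.524 for the same pairs, and leaving out extreme animals also narrows the range of the first gene. Within the low set of 12 animals, r was 0.745, 0.609 and 0.760 for these pairs. The high set held too few animals for a value. When group means were kept, r for Fgf21 and Angptl4 was 0.345. Ppara itself had r = -0.475 with Pdk4 (permutation p = 0.0932, rho = -0.355, permutation p = 0.238), -0.306 with Angptl4, 0.001 with Fgf21, 0.044 with Bdh1, 0.151 with Acat1 and -0.149 with Cpt1a.

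**Figure D3:**
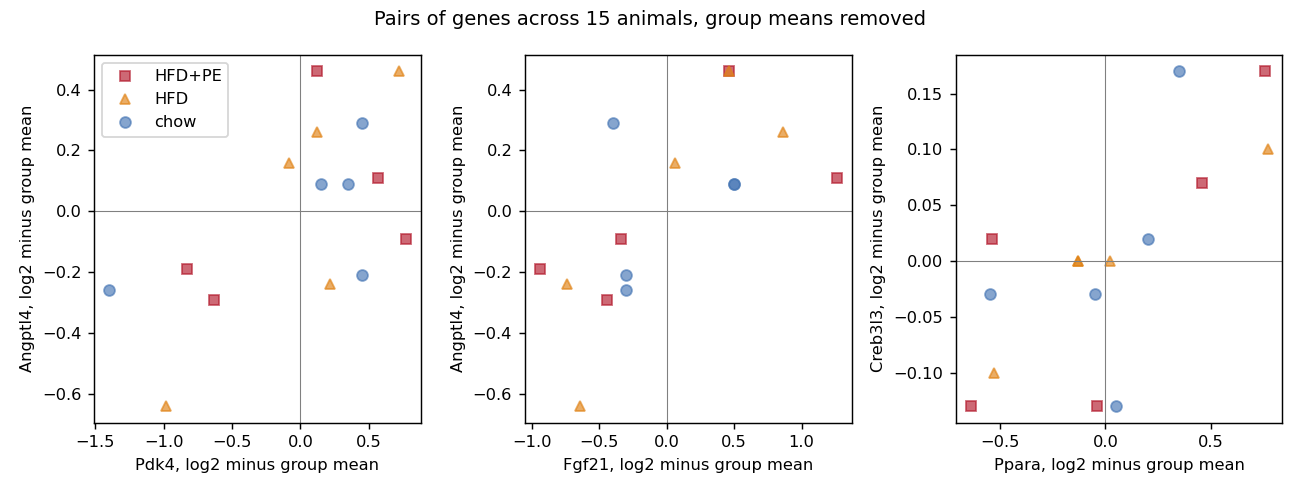
Deviation of each animal from its group mean (log2) for the pairs Pdk4 with Angptl4, Fgf21 with Angptl4 and Ppara with Creb3l3, with markers for HFD+PE, HFD and chow. Points run from lower left to upper right (r = 0.617, 0.662 and 0.711), and darker points hold 2 animals, such as chow 5 and chow 6 in the panel of Fgf21.

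The genes whose pattern was most like each of the 8 were taken as the 3 with the highest r over 15 animals with group means removed, among genes at or above the median level. They are a description without a test. Acat1 was closest to Etfa (r = 0.931), Mpc2 (0.930) and Mcee (0.928), which encode an electron transfer flavoprotein subunit, a mitochondrial pyruvate carrier subunit and methylmalonyl-CoA epimerase. Bdh1 was closest to Alad (0.887), an enzyme of haem synthesis, Tkfc (0.857), a triokinase, and Las1l (0.855). Angptl4 was closest to the peroxisomal transporter gene Abcd3 (0.818), Tmcc3 (0.809) and the peroxisomal thioesterase gene Acot4 (0.787). Fgf21 was closest to Ankrd27 (0.936), Mospd2 (0.897) and Usp38 (0.870), and Pdk4 to Enpp5 (0.860), Osgin1 (0.809) and Adam1a (0.792). Ppara was closest to Tsku (0.899), Pdlim1 (0.882) and Tp53rka (0.786), Cpt1a to Dnajb4 (0.838), Gpm6a (0.829) and Sec24d (0.828), and Creb3l3 to Rfng (0.839), Nutf2 (0.839) and Krt79 (0.806).

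A total of 5 lists of the wider pathway were described by counts, and no gene of them passed an adjusted p of 0.05 in any comparison. The lists include the 8 genes, so their counts and medians repeat those genes in part. Bdh1 and Acat1 are in the ketone list, Cpt1a in the carnitine list, and Ppara and Creb3l3 in PPAR regulation. Pdk4, Fgf21 and Angptl4 are fasting signals, and these with Cpt1a and Creb3l3 are PPAR-alpha targets. Medians over all genes were 0 for HFD+PE against HFD, 0.01 for HFD+PE against chow and 0 for HFD against chow. Of 12 genes of ketone body synthesis, use and transport, 9 were measured and 3 were not analysed here. In HFD+PE livers 7 were higher and 2 lower than in HFD livers (median 0.19), and 6 were higher and 3 lower than in chow livers (median 0.12), while between HFD and chow 3 were higher and 6 lower (median -0.09). Slc16a7, a monocarboxylate transporter gene, was 0.36 higher in HFD+PE than in chow livers (SE 0.14, adjusted p = 0.333 in limma). Aacs, which activates acetoacetate in the cytosol for lipid synthesis, had differences of -0.12 between HFD+PE and HFD and -0.36 between HFD+PE and chow. Oxct1, the ketone-burning enzyme gene that liver largely lacks, was at 5.07 ± 0.12 in HFD+PE, 5.27 ± 0.23 in HFD and 5.28 ± 0.13 in chow livers (SD, n = 5 each), and the deacetylase gene Sirt3 differed by 0.19 between HFD+PE and HFD.

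All 12 genes of the carnitine shuttle were measured. Compared with HFD, 8 were higher and 3 lower in HFD+PE livers (median 0.07). Compared with chow, 6 were higher and 6 lower in HFD+PE (median 0.025), and 5 were higher and 7 lower in HFD livers (median -0.015). Slc22a5, which encodes the carnitine transporter OCTN2, was at 8.55, 8.6, 8.7, 9.0 and 9.2 in HFD+PE animals, 8.4, 8.5, 8.6, 8.6 and 8.65 in HFD animals and 8.7, 8.8, 8.8, 8.9 and 8.9 in chow animals. Every HFD animal was below every chow animal, and 0.521% of all genes had no overlap between these groups. The highest HFD animal (8.65) was the averaged pair HFD 1-2, closer to the lowest chow animal (8.7) than the 0.1 step of rounding. In the HFD+PE group 3 of 5 animals were above every HFD animal. Slc22a5 was picked from its list for a small F p, which favours such a separation. HFD+PE and HFD differed by 0.26 (SE 0.11, adjusted p = 0.993 in limma) and HFD and chow by -0.27 (SE 0.11, adjusted p = 0.6 in limma). Crat, the carnitine acetyltransferase gene, differed by 0.38 between HFD+PE and HFD (SE 0.20) and by -0.29 between HFD and chow (SE 0.20). Cpt1b differed by 0.30 between HFD+PE and HFD. Cpt1c differed by 0.04 between HFD+PE and HFD, by -0.20 between HFD+PE and chow and by -0.24 between HFD and chow (SE 0.09 each). Group means of Cpt1b (5.52 to 5.83) and Cpt1c (5.11 to 5.35) were near the array medians of 5.4 to 5.5.

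Of 22 genes of PPAR regulation, 20 were measured, with medians of 0.005 for HFD+PE against HFD (10 higher, 9 lower), -0.025 for HFD+PE against chow (6 higher, 12 lower) and -0.03 for HFD against chow (6 higher, 12 lower). Ppargc1b, a coactivator gene, was at 7.1, 7.4, 7.5, 7.5 and 7.7 in HFD+PE animals, 7.7, 7.7, 7.85, 7.9 and 8.0 in HFD animals and 7.55, 7.6, 7.7, 8.1 and 8.4 in chow animals. The highest HFD+PE animal equalled the lowest HFD animals, and 3 chow animals lay within the HFD+PE range. Ppargc1b differed by -0.39 between HFD+PE and HFD (SE 0.15, adjusted p = 0.993 in limma) and by -0.43 between HFD+PE and chow (SE 0.15, adjusted p = 0.271 in limma). Pparg differed by 0.35 between HFD and chow (SE 0.16), Rxra, the partner receptor gene, by -0.22 (SE 0.11) and Crtc2 by 0.14 (SE 0.09). Group means of Pparg (4.88 to 5.23) were below the array medians of 5.4 to 5.5, and those of Rxra (5.41 to 5.63) near them.

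Of 26 genes of fasting signals, 23 were measured, with medians of -0.01 for HFD+PE against HFD (11 higher, 12 lower), 0.02 for HFD+PE against chow (12 higher, 10 lower) and -0.03 for HFD against chow (11 higher, 12 lower). Angptl8, induced by feeding and insulin and a partner of other angiopoietin-like proteins, was at 7.9, 8.9, 8.9, 8.95 and 9.6 in HFD+PE animals, 8.1, 8.3, 9.0, 9.1 and 9.2 in HFD animals, and 7.5, 7.7, 7.9, 8.1 and 8.3 in chow animals. In 4 of 5 HFD+PE animals and 3 of 5 HFD animals the level exceeded that of every chow animal. Its differences were 0.11 between HFD+PE and HFD, 0.95 between HFD+PE and chow (SE 0.27, adjusted p = 0.190 in limma) and 0.84 between HFD and chow (SE 0.27, adjusted p = 0.558 in limma), opposite in sign to those of Angptl4 from chow. Pdk2, another pyruvate dehydrogenase kinase gene, differed by 0.24 between HFD and chow (SE 0.09). Angptl6 differed by -0.26 and the receptor gene Fgfr1 by 0.27 between HFD+PE and chow (SE 0.10 each).

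Of 39 PPAR-alpha targets, 34 were measured, and 25 were higher and 9 lower in HFD+PE than in HFD livers (median 0.06). Between HFD+PE and chow 20 were higher and 13 lower (median 0.125), and between HFD and chow 19 were higher and 15 lower (median 0.04). Vnn1, the pantetheinase gene, was at 9.2, 9.3, 9.3, 9.6 and 9.9 in HFD+PE animals, 8.6, 8.8, 8.95, 9.0 and 9.3 in HFD animals, and 7.7, 7.9, 8.7, 8.8 and 8.8 in chow animals. All HFD+PE animals were above all chow animals, and 1.41% of all genes had no overlap between these groups. Vnn1 was picked from its list for a small F p, which favours such a separation. Vnn1 differed by 0.53 between HFD+PE and HFD (SE 0.21), by 1.08 between HFD+PE and chow (SE 0.21, adjusted p = 0.104 in limma) and by 0.55 between HFD and chow (SE 0.21). Ehhadh, the peroxisomal bifunctional enzyme gene, was at 11.27 ± 0.32 in HFD+PE, 10.99 ± 0.32 in HFD and 10.57 ± 0.29 in chow livers (SD, n = 5 each). The fatty acid transporter gene Slc27a2 differed by 0.25 between HFD+PE and chow (SE 0.08), and Cyp4a8, a fatty acid hydroxylase gene, by -1.27 (SE 0.44, adjusted p = 0.275 in limma). Genes of this list thus lay on both sides of chow.

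**Figure D4:**
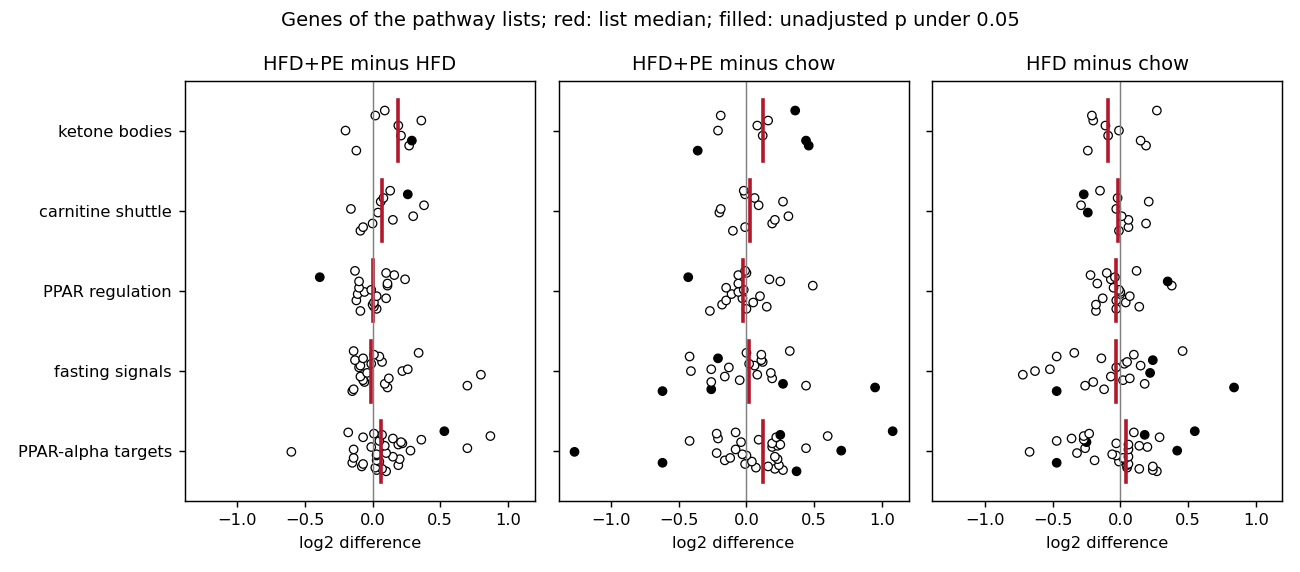
Difference in mean log2 level of each measured gene in the 5 pathway lists, for HFD+PE minus HFD, HFD+PE minus chow and HFD minus chow; filled points have an unadjusted limma p under 0.05, and red bars are list medians. The medians lie between -0.09 and 0.19, with Vnn1 (1.08) and Cyp4a8 (-1.27) among the genes farthest from 0 for HFD+PE minus chow.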

How the data were processed

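Liver RNA was measured on 18 Affymetrix arrays, 6 per group. The authors made the values with RMA in Affymetrix Expression Console, per the submitters' processing notes (versions not given in the sources used here). Signals of 31099 probe sets were deposited on the log2 scale, from 2.2 to 15, all rounded to steps of 0.1. Of the probe sets, 57 were controls, and 20826 of the others named 1 gene symbol, 436 several and 9780 none. Symbols were brought up to date by Entrez identifier (20758 probe sets) or accession (2). The brightest probe set per gene gave 14217 genes, with no filter on dim genes.

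HFD+PE 3 and 4, HFD 1 and 2, and chow 3 and 4 were averaged as 1 animal each. The SD of the difference between the arrays was 0.260, 0.117 and 0.215 for these pairs, and other pairs were as low as 0.260. The 3 group comparisons were fitted in R 4.3.3 with limma 3.58.1 (lmFit with 1 mean per group, eBayes, two-sided) with Benjamini-Hochberg adjustment over 14217 genes per comparison. Correlations used Pearson's r and Spearman's rho with two-sided permutation tests, adjusted over 13 pairs. The limma step was tested on simulated data. The replicate numbers did not pair the arrays. The genes, lists and tests were chosen with earlier results of these data known. The named genes were the 8 genes, the 3 most like each, and from each list up to 4 others with the smallest F p. Alternatives covered the counting of animals, spike-in set, the second number of the descriptions, probe set, dim genes, centring, prior and each animal left out.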

Additional observations from a re-analysis of the deposited data

Results flagged for a closer look

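In the 24 groups of 5 animals formed by the 8 genes, 2 held an animal far from the other 4, where chance gives about 1.2. Pdk4 in chow livers was at 8.85 in chow 3-4, against 10.4 to 10.7 in the other chow animals, a gap of 0.838 of the range. Acat1 in chow livers was at 9.8 in chow 2, against 10.3 to 10.5 in the others, a gap of 0.714 of the range, just past the limit of 0.71 for 5 animals.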

How the results depend on the processing

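With 18 arrays as separate animals, 145 genes passed the adjusted threshold for HFD+PE against chow (Bdh1 0.48), 725 genes had an unadjusted p under 0.05 for HFD+PE against HFD, 3 of the 8 were under it for that comparison and 0 for HFD against chow, and Pdk4 turned to -0.05 for HFD+PE against HFD. With the replicate block on those arrays the values were 119 genes, 711 genes, 3, 0 and -0.05, and Bdh1 had an adjusted p of 0.0522 in limma. The numbers did not pair the arrays. With 16 animals (HFD+PE 3 and 4 separate), 2 of the 8 were under 0.05 for HFD+PE against HFD. With the spike-in set as covariate that count was also 2, and for HFD against chow it was 0 with 665 genes under 0.05. In the low set alone these counts were 2 for HFD+PE against HFD (with 610 genes under 0.05) and 0 for HFD against chow, with 3 genes past the adjusted threshold for HFD+PE against chow and 1 for HFD against chow, and Pdk4 turned to 0.0917 for HFD+PE against chow. Tested one by one, the probe sets gave 581 under 0.05 for HFD+PE against HFD, and the second one of Cpt1a gave -0.01 for HFD against chow. Among genes at or above the median level, fewer genes were tested, with 197, 1040 and 652 under 0.05 for HFD+PE against HFD, HFD+PE against chow and HFD against chow. Ppara and Fgf21 lay below that level, and the median of the members left was 0.105 for HFD+PE against chow.

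Leaving out each animal in turn gave 0 to 2, 0 to 26 and 0 to 1 genes past the adjusted threshold for these comparisons in that order, the 26 without HFD+PE 3-4. Unadjusted counts were 316 to 600, 1209 to 1723 and 847 to 1419 genes, and 0 to 3, 2 to 5 and 0 to 2 of the 8. The median of the 8 was 0.08 to 0.23, 0.17 to 0.35 and -0.02 to 0.05. For HFD+PE against HFD, Ppara was -0.08 to 0.30, Pdk4 -0.195 to 0.26 and Creb3l3 -0.0125 to 0.0625. For HFD against chow, Cpt1a was -0.005 to 0.095 (0.12 without HFD 1-2) and Creb3l3 -0.0625 to 0.0125. Of 65 correlations under other settings 9 turned sign. Ppara with Cpt1a was 0.081 with group means kept and 0.068 for mean probe sets, and Cpt1a with Angptl4 was -0.217 with group means kept. Ppara with Bdh1 was -0.064 and with Fgf21 -0.056 over 18 arrays, and in the low set they were -0.366 and -0.029, and with Acat1 -0.021. Ppara with Angptl4 was 0.291 without the 2 farthest animals. Of the 13 pairs, 3 passed after adjustment over 18 arrays (adjusted permutation p = 0.0463, 0.0396 and 0.0396 for Ppara with Creb3l3, Pdk4 with Angptl4 and Fgf21 with Angptl4), and Ppara with Creb3l3 in the low set (0.0285). The causes were not tested. The median centring, the prior and the fits of 2 groups alone turned no member's sign. Differences near the 0.1 step of rounding, as for Creb3l3, cannot be resolved.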

Other observations

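Markers of other liver cells were set out for the same animals. The 5 measured endothelial markers averaged 8.18 to 8.64 in HFD+PE, 8.08 to 8.71 in HFD and 8.50 to 8.68 in chow animals. The 6 stellate cell markers averaged 6.60 to 6.88 in HFD+PE, 6.50 to 7.12 in HFD and 6.92 to 7.22 in chow animals. By this mean every HFD+PE animal was below every chow animal, as also held for the macrophage markers (highest 8.09, lowest 8.10). Both separations were narrower than the 0.1 step of rounding of the single values. Among single genes, 1.41% had no overlap between these groups, which is not a rate for means over several markers. Of the stellate markers 5 were lower and 1 higher in HFD+PE than in chow, from -0.64 for Col1a2 to 0.11 for Pdgfrb. Adipocyte markers averaged 4.34 to 4.52 in HFD+PE, 4.28 to 4.70 in HFD and 4.44 to 4.56 in chow animals, and muscle markers 3.26 to 3.38, 3.15 to 3.44 and 3.26 to 3.34 in HFD+PE, HFD and chow animals. As a sign of RNA quality, the 3′ probe set of GAPDH exceeded the 5′ one by a median of 3 log2 units in HFD+PE animals, 3 in HFD animals and 2.6 in chow animals. For beta-actin the medians were 3.8 in HFD+PE, 3.9 in HFD and 3.5 in chow animals. Both gaps were smallest in chow animals by median, with overlapping ranges, and their part in the differences from chow was not tested.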
